A study of Mus musculus with 28 samples.

Results

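Axons of retinal ganglion cells (RGCs) end in the superior colliculus (SC), and around postnatal day 7.5 (P7.5) they prune the branches that lie outside their target zones. The axonal and the retinal translatome of that stage were compared gene by gene in 4 of the 28 libraries of the series, 2 from the Cre-positive SC, which stand for the axons, and 2 from the retina. Genes entered when they reached 1 FPKM (fragment counts scaled to transcript length and library size) in at least 2 of these 4 libraries, which kept 1877 of the 23995 genes listed. The first gene outside this filter was Zxdc, whose second highest value was 0.997 FPKM.

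All mice were C57BL/6 and carried RiboTag, an Rpl22 allele that Cre switches to a form with a hemagglutinin tag on the 60S ribosomal protein. In Cre-positive mice Pax6-alpha-Cre, which is active for a short time in progenitors of the peripheral retina, left tagged ribosomes in retinal neurons and hence in the RGC axons that reach the SC. Cre-negative littermates carried the same RiboTag allele without Cre, and 2 SC libraries from them at P7.5 measured what the immunoprecipitation brings down without a tag. Tissue of several animals was pooled for each library. For the sample labeled retina the paper describes dissected retina, while its main procedures name eyes as the material homogenized and do not mention the lens. The retinal sample holds every tagged retinal neuron type and not RGCs alone. Axons and retinas were compared in the same animals and Cre-negative mice were littermates, but nothing in the labels says that a replicate number marks an animal or litter, so the p-values below measure the spread between these libraries, which may be technical.

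Most proteins of an axon are made in the cell body and transported, but axons also hold ribosomes and mRNAs of their own, and local translation is known for its part in guidance, branching and survival of axons. TRAP (translating ribosome affinity purification) reads out the mRNAs held by tagged ribosomes. In the SC the tagged ribosomes are few against those of resident neurons and glia, whose mRNAs can stick to antibody and beads, and for this reason a gene high in Cre-positive SC is read beside its level in Cre-negative SC.

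The libraries were sparse. From the value that a single fragment takes in genes with 1 annotated transcript, the depth was roughly 6.68 to 10.6 M fragments in the 6 P7.5 libraries. This value was searched in a fixed window, which bounds the estimate. The commonest value was shared by 10 to 14 of 241 to 302 such genes in the SC libraries. It was shared by 63 of 364 in retina 1 and 30 of 649 in retina 2, so the depth is uncertain. Between 2933 and 8119 genes were above 0 FPKM, the most in retina 2 against 4311 in retina 1, and the 10 highest genes held 33.2% to 44.5% of all FPKM in a library. Genes that all cells use were at 0 in some libraries and not in others, so values are given library by library, in the order replicate 1 and replicate 2, and a value of 0 is described as listed at 0. Actb (beta-actin) was at 35812 and 5114 FPKM in axons and was listed at 0 in retina 1 but at 38178 FPKM in retina 2. Gnb1, a G-protein beta subunit, was at 26687 and 24503 FPKM in axons and at 18986 and 27079 FPKM in Cre-negative SC, and it was listed at 0 in both retinal libraries, so no fold is given for it. Hsf2 had no value in axon 1 and was not tested. Rpl22 itself, the gene that carries the tag, was listed at 0 in all 4 SC libraries and stood at 0.0645 and 1.12 FPKM in retina, below the filter.

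Across the 1877 genes each axonal and retinal library resembled those of its own replicate number more than the other replicate of its source. The Cre-negative libraries correlated with each other at 0.711 and with retina of the same number at 0.709 and 0.693. Axon 1 and axon 2 correlated at r = 0.617 (Pearson, log2(FPKM + 1), across genes, which are not independent replicates) and retina 1 and retina 2 at 0.612. Axon 1 correlated with Cre-negative SC 1 at 0.903 and with retina 1 at 0.778, and axon 2 with Cre-negative SC 2 at 0.758 and with retina 2 at 0.656. The lowest value, 0.429, was between axon 2 and retina 1.

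**Figure D1:**
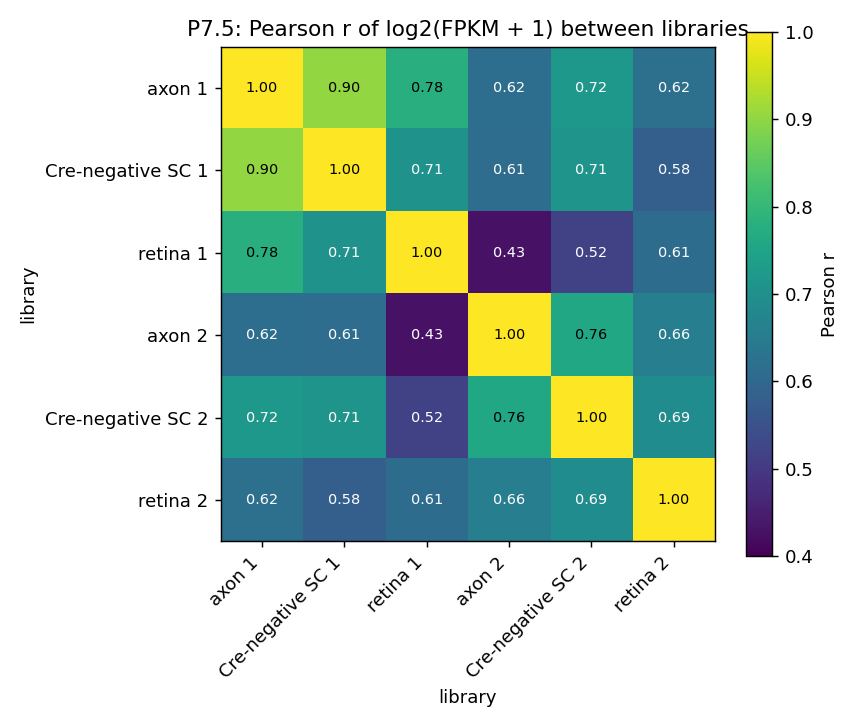
Pearson r of log2(FPKM + 1) over the 1877 genes between the 6 P7.5 libraries, ordered by replicate number. The value for axon 1 with Cre-negative SC 1 (0.90) lies above that of the axon replicates with each other (0.62).

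The comparison of axons with retina asks which mRNAs stand out in the distal axon from those of the cell bodies. Only a handful of genes separated the sources beyond the spread between libraries. Sptbn1, a beta-spectrin of the membrane skeleton, and Cbr3, a carbonyl reductase, were higher in axons, while Ttyh2, a membrane protein of the tweety family, Opn1sw, the short-wavelength opsin of cones, and Pdpn, the membrane glycoprotein podoplanin, were higher in retina. These were the calls of limma on log2(FPKM + 1) over all 1877 genes at an adjusted p below 0.05. They make 2 genes higher in axons (0.107% of the genes tested) and 3 higher in retina (0.160%). At an unadjusted p below 0.05 there were 90 and 60. The median difference over all genes was 0.17 on the log2 scale and the median standard error 1.49, so that a gene had to differ many-fold to pass. In simulated data with such spread, 6% of 50 genes with a true log2 difference of 2 were called. The share was 40% at a difference of 4, 64% at 6 and 88% at 8, with 50 genes at each size. So many differing genes ease the adjusted threshold, and the simulated noise was independent between libraries and held no listed zeros. These shares may therefore overstate what the test recovers in the real libraries. The calls rested on single libraries: without retina 1 the test called 0 genes in either direction, and without retina 2 it called 3 higher in axons and 8 higher in retina.

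Sptbn1 (GRCm38, chromosome 11, 30099395 to 30268175, minus strand) stood at 784 and 476 FPKM in axons and at 1.22 and 6.91 FPKM in retina. Both axonal values lay far above both retinal ones, and the ranks of the gene within its library were 96.9 and 96.4 of 100 in axons against 46.4 and 53.2 in retina. Its log2 difference was 7.19 (SE 1.37, adjusted p = 0.0327, limma). In Cre-negative SC it stood at 50.8 and 250.1 FPKM, below both axonal values, with a log2 difference between Cre-positive and Cre-negative SC of 2.42 (SE 1.43) that did not pass (adjusted p of 1, limma). Part of the gene overlaps Gm29237 and Gm8098 on the other strand, which the libraries cannot tell apart from it.

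Cbr3 (chromosome 16, 93683215 to 93690990, plus strand) was a gene of middle rank in axons, at 19.2 and 33.2 FPKM, and was listed at 0 in retina 1 and at 0.195 FPKM in retina 2. Its log2 difference was 4.59 (SE 0.69, adjusted p = 0.00577, limma). The Cre-negative libraries disagreed on it, with 14.7 FPKM in the first, close to axon 1, and 0.192 FPKM in the second. Neither Sptbn1 nor Cbr3 reached 2 times both Cre-negative values in both axonal libraries.

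Ttyh2 (chromosome 11, 114675431 to 114720977, plus strand) was among the highest genes of the eye, at 15670.0 and 6268 FPKM in retina, and stood at 469 and 126 FPKM in axons. The groups did not overlap, and the log2 difference was -5.34 (SE 0.95, adjusted p = 0.0218, limma). Cre-negative SC held it at 191 and 287 FPKM, in the range of the axonal libraries.

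Opn1sw (chromosome 6, 29376671 to 29388468, minus strand) stood at 2526 and 84.1 FPKM in retina, was at 1.96 FPKM in axon 1 and was listed at 0 in axon 2. Its log2 difference, -8.08 (SE 1.64, adjusted p = 0.0478, limma), was the largest of the called genes. The end of the gene overlaps Calu on the other strand from 29376671 to 29377110, and since the libraries do not record strand, reads there cannot be told apart; Calu was listed at 0 in all 4 SC libraries and stood at 0.0444 and 0.536 FPKM in retina.

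Pdpn (chromosome 4, 143267431 to 143299564, minus strand) was at 541 and 1178 FPKM in retina and at 32.2 and 33.7 FPKM in axons. It had the closest agreement of the axonal replicates, and its log2 difference was -4.56 (SE 0.94, adjusted p = 0.0478, limma). In Cre-negative SC it was at 48.4 and 84.1 FPKM, above both axonal values.

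**Figure D2:**
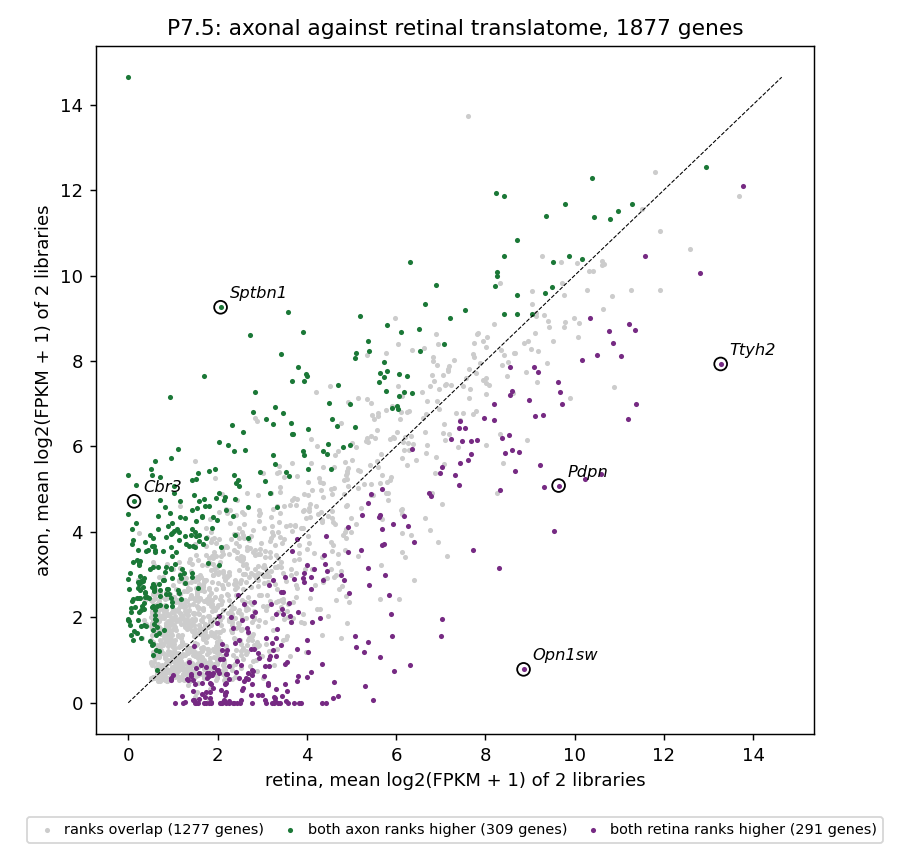
Each point is a gene, with the mean log2(FPKM + 1) of the 2 retinal libraries on the x axis and of the 2 axonal libraries on the y axis. Green and purple mark genes whose ranks separate the sources, circles the 5 called genes, and the point at 0 on the x axis and at the top is Gnb1.

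Without a test, the genes can be ordered by their rank within each library. A gene was taken as separated when its lower rank in one source lay above its higher rank in the other, and this held for 309 genes toward axons (16.5% of the 1877) and for 291 toward retina (15.5%). With 2 libraries against 2 the smallest two-sided exact permutation p is 0.333, so separation is a description. The median log2 difference was 2.25 over the genes separated toward axons and -1.81 over those separated toward retina, and 1277 genes overlapped. Among the genes separated toward axons 6 were listed at 0 in both retinal libraries, and among those toward retina 30 were listed at 0 in both axonal libraries. Under the filter such a gene had to reach 1 FPKM in both libraries of the other source, so its separation was fixed. Likewise a gene below 1 FPKM in both libraries of a source, such as Cbr3 in retina, entered only through the other source.

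The genes next in size were chosen after their values were seen, as the 12 separated genes with the largest log2 difference in each direction and at least 10 FPKM in both libraries of the higher source. None of those named in this and the next paragraph passed the test. Gata3, a transcription factor of midbrain GABAergic neurons, was at 219 and 182 FPKM in axons and at 1.22 and 3.67 FPKM in retina. Lmo3, a LIM-domain regulator, was at 53.1 and 67.8 FPKM in axons against 1.59 and 0.800 FPKM in retina. The Cre-negative values of both overlapped the axonal ones, with Gata3 at 112 and 194 FPKM and Lmo3 at 43.3 and 129.8 FPKM. Ppp1r16b, a regulatory subunit of protein phosphatase 1, was at 448 and 335 FPKM in axons, 2.58 and 11.1 FPKM in retina and 373 and 463 FPKM in Cre-negative SC. Ednrb, the endothelin receptor type B that glia carry, was at 237 and 1347 FPKM in axons, 2.59 and 39.0 FPKM in retina and 381 and 1376 FPKM in Cre-negative SC. In each of these 4 genes the axonal and the Cre-negative values overlapped.

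Toward retina, Btg2, an antiproliferative gene of differentiating progenitors, was at 281 and 1934 FPKM in retina and at 2.92 and 65.5 FPKM in axons. Bcl2l1, which encodes the survival protein Bcl-xL, was at 779 and 3021 FPKM in retina and at 60.0 and 26.2 FPKM in axons. Glo1, the glyoxalase that clears methylglyoxal, was at 2606 and 549 FPKM in retina against 49.4 and 27.4 FPKM in axons. Thrb, a thyroid hormone receptor needed for cone opsin patterning, was at 14.0 and 166 FPKM in retina against 2.70 and 0.188 FPKM in axons. Cecr2, a chromatin remodeling factor, was even in the retinal libraries, at 86.7 and 72.1 FPKM, and stood at 0.263 and 1.73 FPKM in axons. In these 5 genes both retinal values exceeded both axonal ones, while the retinal replicates differed by several-fold in all but Cecr2.

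**Figure D3:**
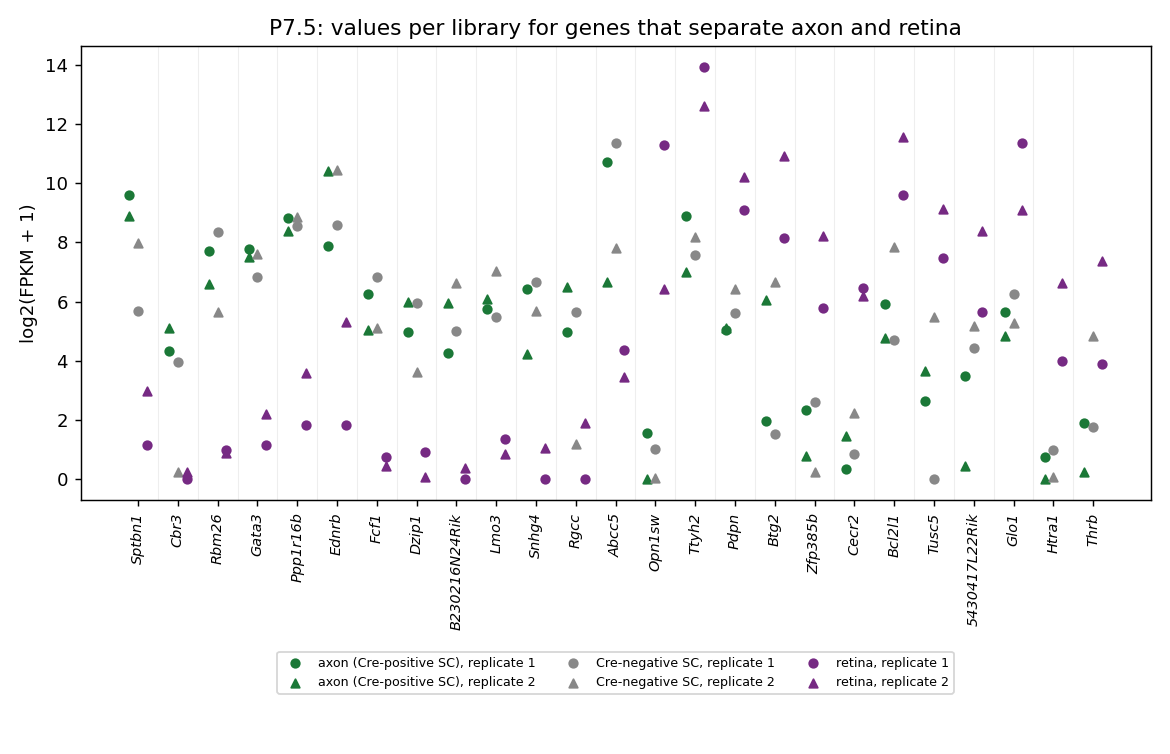
The log2(FPKM + 1) of each P7.5 library for the called genes and for the separated genes with the largest differences, with circles for replicate 1 and triangles for replicate 2. In most of the genes to the left the gray points of Cre-negative SC lie with the green points of the axons, for example at 112 and 194 FPKM against 219 and 182 FPKM in Gata3.

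No gene passed the test between Cre-positive and Cre-negative SC. In the fit of the 16 SC libraries, limma called 0 genes higher (0% of 1877) and 0 lower (0%), with 21 and 7 at an unadjusted p below 0.05. Without axon 1 it called 14 higher. Over the genes separated toward axons the median log2 difference between Cre-positive and Cre-negative SC was 0.33, against 0.16 over all genes. This comparison shares the axonal libraries with that of axons and retina, so the former value is raised by the choice of genes. Of the 309 genes, 22 were at 2 times or more of both Cre-negative values in both axonal libraries, as were 76 of all 1877. In 21 of the 22 the value was higher in axon 2 than in axon 1, with Alpk3 as the exception, and the following were chosen after their values were seen. Ppp1r9a, neurabin, an actin-binding scaffold of neurites, was at 22.7 and 32.6 FPKM in axons, 5.64 and 2.50 FPKM in Cre-negative SC and 0.492 and 12.7 FPKM in retina. Pnoc, the precursor of the peptide nociceptin, was at 3.67 and 10.3 FPKM in axons, listed at 0 and at 0.0981 FPKM in Cre-negative SC and at 0.133 and 0.389 FPKM in retina. Gpm6b, a membrane glycoprotein of neurons and glia, was at 3.59 and 16.7 FPKM in axons, 0.467 and 0.239 FPKM in Cre-negative SC and 0.232 and 1.60 FPKM in retina. Myo6, an unconventional myosin that moves toward the minus end of actin, was at 3.42 and 11.8 FPKM in axons, 0.609 and 0.134 FPKM in Cre-negative SC and 0.0499 and 3.95 FPKM in retina. Each of these 4 genes stood highest in axon 2, and none passed the test in either comparison.

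Gene groups of the axon were next described by their members. No set was tested, and apart from Opn1sw no member of any list described here passed the test. Counts of separated members are to be read against the 16.5% of all genes that separated toward axons and the 15.5% toward retina. Medians are given with their lowest and highest value when one of the 4 libraries was left out, which for all genes was -0.17 and 0.83 around 0.17. Of the list of axonal cytoskeleton and growth, 28 of 49 genes were tested, 4 separated toward axons, 2 toward retina, and the median log2 difference was 0.45 (-0.90 to 2.07). Map1b, a microtubule-associated protein of growing axons, was at 62.5 and 95.1 FPKM in axons and at 10.1 and 13.6 FPKM in retina. Kif1b, an anterograde motor for mitochondria and vesicle precursors, was at 74.8 and 111 FPKM in axons and at 1.47 and 35.4 FPKM in retina. In Cre-negative SC Map1b was at 30.7 and 100.4 FPKM and Kif1b at 58.7 and 75.5 FPKM. Tubb5, a beta-tubulin, is counted toward axons by rank only, with 7459 and 4825 FPKM in axons and 10026 and 6264 FPKM in retina. Its FPKM overlapped and its log2 difference, -0.40 (SE 5.05), had the opposite sign. Dpysl2 (CRMP2), which binds tubulin in growth cones, overlapped, at 4406 and 1021 FPKM in axons and 5329.7 and 2828 FPKM in retina. Tubb3, the neuronal beta-tubulin, was low in both first replicates, at 0.281 and 30.9 FPKM in axons and 0.412 and 12.4 FPKM in retina, but not in Cre-negative SC (37.5 and 37.0 FPKM).

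Of the synaptic vesicle and release genes, 16 of 53 were tested, 1 separated toward axons and 4 toward retina, with a median of -0.20 (-0.45 to 0.59). Several members differed more between replicates than between sources. Cplx2, a complexin that clamps release, was at 387 and 23.9 FPKM in axons and 730.3 and 39.9 FPKM in retina, and Syt4, a synaptotagmin, was at 1.44 and 708 FPKM in axons and 1.13 and 419 FPKM in retina. Sv2b, a vesicle glycoprotein, was at 72.7 and 0.177 FPKM in axons and at 838 and 2.07 FPKM in retina. Of the guidance and adhesion genes, 6 of 49 were tested and the median was 0.31 (-0.23 to 0.97). Ncam1, the neural cell adhesion molecule, was at 1799 and 1086 FPKM in axons and at 4289.6 and 2206 FPKM in retina and was the only member to separate. Efna5, an ephrin that repels temporal axons in the SC, was at 109 and 162 FPKM in axons, 53.4 and 205 FPKM in Cre-negative SC and 20.4 and 506 FPKM in retina. Cntn1, an adhesion molecule of axons, was at 84.4 and 1002 FPKM in axons, 37.2 and 590.4 FPKM in Cre-negative SC and 21.8 and 129 FPKM in retina.

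As P7.5 is the stage of pruning, genes of axon degeneration, caspases and complement were followed as a list. Of 36 genes 8 were tested, 1 separated toward axons and 4 toward retina, and the median was -0.69 (-1.02 to -0.12). Nmnat2, the labile NAD-synthesizing enzyme that keeps axons alive, was at 10.3 and 37.0 FPKM in axons, 3.24 and 22.9 FPKM in Cre-negative SC and 6.95 and 2.27 FPKM in retina. Its opponent Sarm1, the NAD-cleaving executor of axon degeneration, was at 2.04 and 1.67 FPKM in axons and at 6.18 and 8.92 FPKM in retina. Bcl2l1, given above, separated toward retina, and the related survival gene Bcl2 was at 1.91 and 7.53 FPKM in axons against 1.33 and 14.7 FPKM in retina. Bcl2 separated by rank and not by FPKM. Bace1, the beta-secretase, was at 15.1 and 49.5 FPKM in axons and at 84.1 and 140.5 FPKM in retina. Uchl1, an abundant neuronal deubiquitinase, overlapped by rank, at 296 and 30.5 FPKM in axons and 1.18 and 24.1 FPKM in retina, with 327 and 45.1 FPKM in Cre-negative SC. Casp9, the initiator caspase, was at 10.9 FPKM in axon 1 and 35.1 FPKM in retina 1 and below 1 FPKM in the second replicates.

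Among genes of protein synthesis and energy supply, the list medians depended on the retinal library. Of 79 cytosolic ribosomal protein genes in the files 31 were tested, 1 separated toward axons (Rplp1, at 42.5 and 98.3 FPKM against 15.3 and 58.2 FPKM, by rank and not by FPKM) and 12 toward retina, with a median of -0.57 (-2.26 to 1.03). Rps3 was at 182 and 643 FPKM in axons and 248 and 874 FPKM in retina, and Rps25 at 297 and 152 FPKM in axons and 463 and 717 FPKM in retina. The low value is that without retina 1 and the high one that without retina 2. Of 76 respiratory chain and ATP synthase genes 22 were tested, 2 separated toward axons and 4 toward retina, with a median of 0.03 (-1.35 to 1.34). Ndufb10, a complex I subunit, was at 24.1 and 34.7 FPKM in axons and 0.274 and 12.2 FPKM in retina, and Cox7b, of complex IV, at 8.66 and 5.62 FPKM in axons and 17.4 and 39.4 FPKM in retina. Of 31 proteasome genes 6 were tested and 1 separated toward retina (median -0.84, -3.07 to 1.35), and Psmb4, a subunit of the core particle, was at 3.56 FPKM in axon 1 and 62.0 FPKM in retina 2 and listed at 0 in the other two libraries. Of 36 translation factors 17 were tested, 1 separated in each direction (median 0.12, -0.81 to 1.83). Eif4g1, the scaffold of cap-dependent initiation, was at 92.7 and 37.1 FPKM in axons and 1.64 and 9.22 FPKM in retina, while the elongation factor Eef1a1 was at 27.8 and 170.0 FPKM in axons and 3.32 and 369 FPKM in retina. Of 63 chromatin modifiers 18 were tested, 2 separated toward axons and 3 toward retina (median -0.42, -0.42 to 0.60). Smarca2, a BAF complex ATPase, was at 122 and 379 FPKM in axons and 34.999 and 84.1 FPKM in retina, and Kdm6b, an H3K27 demethylase, at 773 and 186 FPKM in axons and 2878 and 400.0 FPKM in retina. Cre-negative SC held Ndufb10 at 106 and 29.5 FPKM, Eif4g1 at 62.8 and 8.13 FPKM and Smarca2 at 65.0 and 309 FPKM. In each of them these values overlapped the axonal ones. Rplp1 was at 25.9 and 1.37 FPKM there, below both its axonal values.

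Markers of the cells around the axons and of the eye were read in the same libraries. Photoreceptor genes were present in both retinal libraries at very different levels. Of 42 rod and cone genes 21 were above 0 in retina 1 and 37 in retina 2, and in SC 33 were listed at 0 in both axonal libraries. Their summed FPKM was 2538 and 1184 in retina, 1.96 and 7.06 in axons and 1.03 and 0.431 in Cre-negative SC. Without Opn1sw the retinal sums were 12.1 and 1099.6. Pdc (phosducin), which regulates transducin, was at 4.80 and 28.9 FPKM in retina. Unc119, a carrier of lipidated photoreceptor proteins, was at 3.22 and 135 FPKM. Pdc was listed at 0 in both axonal libraries, and Unc119 was listed at 0 in axon 1 and at 0.169 FPKM in axon 2. In all, 5 of the 42 genes were tested, 4 separated toward retina and the median was -3.72 (-5.04 to -1.97). Pdc and Unc119 passed the filter only through both retinal libraries, which fixed their direction.

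Lens genes were present in the retinal libraries. The summed FPKM of 24 lens genes was 651 and 1759.9 in retina, and 2.001 and 0.0989 in axons. Without Mip, the aquaporin of lens fibers (642 and 4.89 FPKM in retina), the retinal sums were 9.33 and 1755. Cryaa, the alpha-crystallin chaperone, was at 2.40 and 596 FPKM in retina, listed at 0 in axon 1 and at 0.0989 FPKM in axon 2. All 4 lens genes tested separated toward retina (median -4.77, -6.90 to -1.63), and 21 of 24 were listed at 0 in both axonal libraries. A gene below 1 FPKM in both axonal libraries, such as Cryaa, entered only with at least 1 FPKM in both retinal ones. The filter thus fixed the direction of such genes, and their separation is no finding of its own. Bipolar cell markers summed to 3.38 and 33.9 FPKM in retina, and markers of pigment epithelium, iris and cornea to 1.36 and 14.6 FPKM. Neither list had a tested gene, and the latter was at 0 in all SC libraries. Which part of the axon and retina difference such cells carry was not tested, and fewer cells of a type and less RNA per cell cannot be told apart in these samples.

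Of 22 RGC markers 3 were tested, none separated, and the median was 0.06 (-0.59 to 0.71). Pou4f1 (Brn3a), a transcription factor of RGCs that midbrain neurons also use, was at 175.5 and 457 FPKM in axons, 191 and 582 FPKM in Cre-negative SC and 106 and 1091 FPKM in retina. Ebf1 was at 18.6 and 43.5 FPKM in axons and 43.4 and 17.1 FPKM in retina, and the neuronal RNA-binding protein Elavl4 was at 48.5 FPKM in axon 1, listed at 0 in axon 2, and at 26.1 and 0.0268 FPKM in retina. Thy1 and Nefl, defining markers of RGCs, reached at most 8.35 and 6.96 FPKM in any of the 4 libraries and below the filter. For amacrine and horizontal cells, 2 of 16 genes were tested and none separated (median -0.10, -1.002 to 0.80); Tfap2b was at 17.2 and 65.9 FPKM in axons and 19.1 and 92.3 FPKM in retina. For Müller glia, 6 of 10 were tested and Sox9 separated toward retina, at 91.8 and 78.5 FPKM in axons against 144 and 199.7 FPKM in retina (median -0.27, -0.63 to 0.38). For cell cycle and progenitor genes, 3 of 25 were tested and none separated (median 1.49); Sfrp2, a Wnt inhibitor, was at 184 and 106 FPKM in axons, 126 and 79.9 FPKM in Cre-negative SC and 86.8 and 13.5 FPKM in retina.

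Markers of resident SC cells were present in the axonal libraries. Midbrain neuron markers summed to 238 and 248 FPKM in axons, 148 and 251 FPKM in Cre-negative SC and 21.4 and 103 FPKM in retina, with Gata3 as the main member and 12 of 19 listed at 0 in both axonal libraries. Myelin markers summed to 26.6 and 74.1 FPKM in axons, 44.5 and 65.9 FPKM in Cre-negative SC and 2.07 and 21.7 FPKM in retina, most of it Cnp, a myelin enzyme, while 12 of the 16 were listed at 0 in both axonal libraries. Astrocyte markers summed to 507 and 789.8 FPKM in axons, 316 and 395 FPKM in Cre-negative SC and 583 and 151 FPKM in retina. Gja1 (connexin 43) was their highest member in axons, at 288 and 642 FPKM in axons, 191 and 379 FPKM in Cre-negative SC and 85.7 and 94.5 FPKM in retina, and it separated toward axons. Among these 3 lists 1 gene each separated toward axons (Gata3, Cnp and Gja1) and none toward retina, of 2, 1 and 6 tested. Microglial markers summed to 0.244 and 0.0852 FPKM in axons against 20.8 FPKM in Cre-negative SC 2, and those of endothelium and blood to 0 and 6.69 FPKM in axons. The part of resident SC cells in the genes higher in axons was not tested beyond the comparison with Cre-negative SC.

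**Figure D4:**
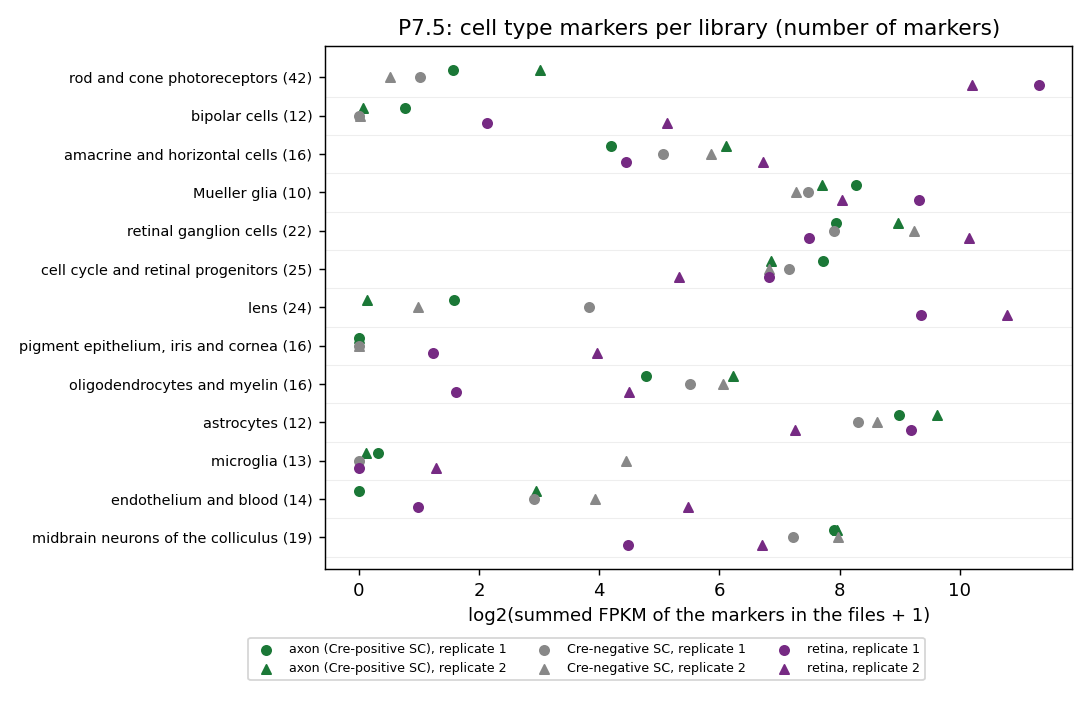
Summed FPKM of each marker list, as log2(sum + 1) on the x axis, in the 6 P7.5 libraries, with the number of markers in the files in brackets. Photoreceptor and lens markers lie far to the right in both retinal libraries, while midbrain and myelin markers of the axonal libraries overlap those of Cre-negative SC, and astrocyte markers (507 and 790 FPKM) lie above them (316 and 395 FPKM).

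The promoters of photoreceptor genes were read because Opn1sw was called and its list had the second lowest median after lens. Photoreceptor genes share the homeodomain factor CRX, whose core site is written TAATCC, or GGATTA on the other strand. Both were searched in windows from 250 bases before to 50 bases after each RefSeq start (GRCm38.p6). A match was in 14 of the 29 listed photoreceptor genes that had a window (48.3%), in 7.10% of the tested genes with a window and in 7.06% of all 32851 windows. Among the separated genes it was in 9.13% of 230 toward retina and in 7.88% of 241 toward axons. Such a match is a string of letters and not a measured site. The window of Opn1sw, the called cone gene, is shown with those of Sag (arrestin, 0.413 and 60.3 FPKM in retina), Guca1a (a guanylate cyclase activator, listed at 0 and at 54.0 FPKM) and Rbp3 (a retinoid-binding protein, 0.0753 and 22.5 FPKM), each 5′ to 3′ on the strand of its gene, with the match in capitals. They lie at chr6:29380464-29380763 (minus strand), chr1:87803430-87803729 (plus strand), chr17:47400557-47400856 (minus strand) and chr14:33953753-33954052 (plus strand). The letters start 87 bases before the start site in Sag, 57 in Guca1a and 69 in Rbp3, and they are not in the window of Opn1sw. Sag, Guca1a and Rbp3 were taken from the listed genes with a match, so their match was fixed by that choice. Rom1, Tulp1 and Nr2e3, at 94.8, 79.2 and 48.5 FPKM in retina 2, had a window without a match. Unc119 had windows with and without a match and is not shown.
Opn1sw: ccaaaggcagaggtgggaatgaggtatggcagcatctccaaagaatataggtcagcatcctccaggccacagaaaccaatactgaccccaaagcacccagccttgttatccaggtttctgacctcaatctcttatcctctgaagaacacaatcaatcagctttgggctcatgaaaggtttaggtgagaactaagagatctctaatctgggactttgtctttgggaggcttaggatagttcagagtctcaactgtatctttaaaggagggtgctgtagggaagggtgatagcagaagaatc
Sag: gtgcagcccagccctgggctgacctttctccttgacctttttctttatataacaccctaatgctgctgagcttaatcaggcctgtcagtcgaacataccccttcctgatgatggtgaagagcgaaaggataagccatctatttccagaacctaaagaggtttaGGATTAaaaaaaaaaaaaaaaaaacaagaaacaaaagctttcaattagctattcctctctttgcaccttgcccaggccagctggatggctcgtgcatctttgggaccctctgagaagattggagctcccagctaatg
Guca1a: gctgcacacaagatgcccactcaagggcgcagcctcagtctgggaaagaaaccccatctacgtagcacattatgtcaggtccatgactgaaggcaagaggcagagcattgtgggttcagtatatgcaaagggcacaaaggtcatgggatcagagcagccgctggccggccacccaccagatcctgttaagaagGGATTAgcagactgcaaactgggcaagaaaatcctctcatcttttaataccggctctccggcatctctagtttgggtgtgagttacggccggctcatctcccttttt
Rbp3: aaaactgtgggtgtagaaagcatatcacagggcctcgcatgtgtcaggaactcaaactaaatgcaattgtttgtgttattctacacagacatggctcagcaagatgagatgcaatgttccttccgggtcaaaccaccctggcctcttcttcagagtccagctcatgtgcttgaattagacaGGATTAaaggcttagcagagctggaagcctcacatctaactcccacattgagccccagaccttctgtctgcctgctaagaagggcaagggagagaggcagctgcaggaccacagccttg

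The median length of a gene's coding transcripts was 2290 bases (quartiles 1244 and 3671) over 301 genes toward axons with a length, 2212 bases (1289 and 3484) over 280 toward retina and 2056 bases over all 1815 with a length.

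The same sources at the other stages, embryonic (E17.5), P0.5 and adult, did not enter the ranks at P7.5, but their libraries shared the estimate of the spread behind the limma calls. With the 4 P7.5 libraries alone, Sptbn1, Ttyh2 and Opn1sw were called and Cbr3 and Pdpn were not. Of the called genes, 4 of the 5 kept the direction in both replicates at some other stage. Sptbn1 was at 12.2 and 28.1 FPKM in axons against 2.68 and 3.21 FPKM in retina at E17.5, at 593 and 395 against 0.538 and 0.467 FPKM at P0.5 and at 146 and 41.6 against 6.23 and 9.91 FPKM in the adult. At E17.5 both Cre-negative values (32.3 and 108 FPKM) lay above the axonal ones. In the adult both (51.1 and 59.8 FPKM) lay above axon 2, and at P0.5 both (268 and 65.9 FPKM) lay below the axonal ones. Pdpn was at 53.0 and 72.8 FPKM in axons against 570.4 and 776 FPKM in retina at E17.5, at 199 and 215 against 1856 and 2280.4 FPKM at P0.5 and at 132 and 279 against 1721 and 539 FPKM in the adult. Opn1sw was likewise higher in retina at each stage, with 6.23 and 2.27 FPKM at E17.5, 18.1 and 45.3 FPKM at P0.5 and 103 and 30.5 FPKM in the adult, against at most 1.95 FPKM in axons. Cre-negative SC 1 held it at 6.07 FPKM at E17.5 and at 10.4 FPKM in the adult, and by rank it did not separate at all stages. Ttyh2 overlapped at E17.5, at 583 and 322 FPKM in axons and 536 and 436 FPKM in retina, and was higher in retina at P0.5 (2442 and 2685 against 634 and 671 FPKM) and in the adult (870.3 and 5529 against 289 and 676 FPKM). Sptbn1 was higher in axons, and Pdpn and Opn1sw in retina, without overlap in FPKM at all stages.

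Cbr3 was seen at P7.5 alone. It was listed at 0 in all retinal libraries of the other stages and in 5 of the 6 axonal ones, the sixth being P0.5 axon 2 at 0.110 FPKM. The difference of axons and retina at P7.5 minus its mean at the other stages was 4.56 on the log2 scale for Cbr3 (SE 0.80, adjusted p = 0.0376, limma), the only gene with a larger difference among 1876 (0.0533%). With a replicate block its adjusted p was 0.0956 (limma), and it passed in 5 of 12 alternatives. No gene had a smaller one (0%), with 25 and 14 at an unadjusted p below 0.05. The next genes by p, which did not pass, were Ttc21b, a ciliary transport protein, with 2.95 (SE 0.92, adjusted p = 0.992), and Aloxe3, a lipoxygenase of skin, with 3.32 (SE 1.05, adjusted p = 0.992). Aloxe3 was at 18.9 and 13.0 FPKM in P7.5 axons and 50.9 and 9.58 FPKM in Cre-negative SC. In the other direction stood Ttyh2 with -3.87 (SE 1.10), Glo1 with -3.93 (SE 1.29) and Rraga, a GTPase of the mTORC1 nutrient-sensing pathway, with -5.26 (SE 2.03), all at an adjusted p of 0.992 (limma). Rraga was at 28.4 and 58.2 FPKM in P7.5 axons and at 294 and 53.0 FPKM in retina.

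**Figure D5:**
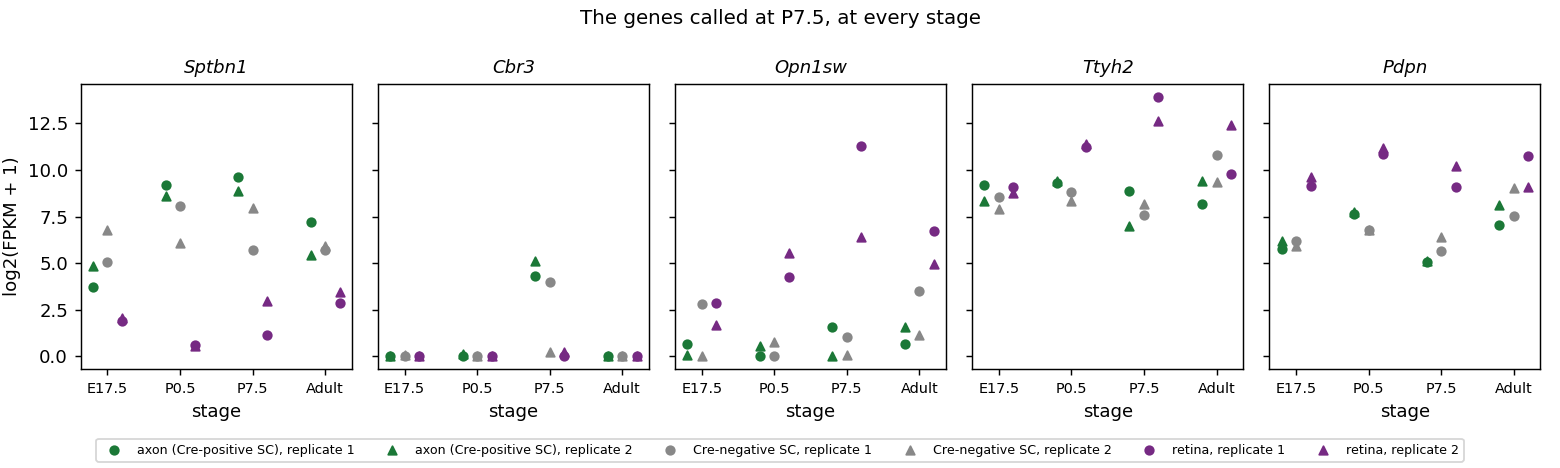
The log2(FPKM + 1) of the 5 called genes in every library of the 4 stages, with axons in green, Cre-negative SC in gray and retina in purple. Cbr3 is above 1 FPKM at P7.5 only, where Cre-negative SC 1 (14.7 FPKM) lies near the axonal libraries (19.2 and 33.2 FPKM).

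Beyond the called genes, the separation by rank was compared with that at each other stage. Of the genes separated toward axons at P7.5, 105 of 308 (34.1%) were separated that way at E17.5, where 300 of all 1875 genes compared were, 165 of 308 (53.6%) at P0.5, where 40.9% were, and 119 of 309 (38.5%) in the adult, where 20.4% were. Of the 291 genes toward retina, 119 (40.9%) were separated that way at E17.5 against 329 of the 1875, in all 33.5% in either direction, 182 (62.5%) at P0.5 against 37.4%, and 108 (37.1%) in the adult against 16.7%. The opposite separation was found for 4.47% to 5.83% of the genes at E17.5 and in the adult, and for 26.3% and 22.3% at P0.5. These shares are descriptions over genes of the same libraries and were not tested.

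Separation at all 4 stages was found for 37 genes toward axons and 53 toward retina. Over all 1877 genes, 66 and 71 were separated in these directions at the other 3 stages. Toward axons the genes included Sptbn1, Gata3, Ppp1r16b and Lmo3, and the next 2 were chosen after their values were seen. Bcl11b (Ctip2), a zinc-finger factor of projection neurons, was at 25.1 and 34.0 FPKM in P7.5 axons and 1.09 and 0.963 FPKM in retina. Tcf7l2, a Wnt effector high in thalamus and midbrain, was at 609 and 139.8 FPKM in axons and 46.7 and 23.4 FPKM in retina. Cre-negative SC held Bcl11b at 36.6 and 28.7 FPKM and Tcf7l2 at 445 and 62.4 FPKM, overlapping the axonal values. Toward retina they included Pdpn, Btg2, Bcl2l1, Cryaa and Cecr2, and the following were chosen after their values were seen. Rorb, a nuclear receptor needed for rods, was at 1641 and 2093 FPKM in P7.5 retina and 329 and 359 FPKM in axons. Gnb3, the transducin beta subunit of cones, was at 3.36 and 104 FPKM in retina and listed at 0 in both axonal libraries. Meis1, a homeodomain factor of the eye, was at 25.9 and 20.9 FPKM in retina and 0.859 and 0.0578 FPKM in axons.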

How the data were processed

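Ribosome-bound RNA was immunoprecipitated from SC or eyes, reverse-transcribed from oligo(dT), amplified by PCR and sequenced without record of strand. Per the submitters' processing notes the reads were aligned to mm10 with TopHat 2.0.12, and the authors deposited FPKM values per gene from Cufflinks 2.2.1 for each library. Counts of a separate adult run-off experiment were not used. Fragment totals were not given in the files used here, and depth was estimated from the steps between low values. PCR amplification can raise or lose single genes, more so at low input.

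FPKM was analysed as log2(FPKM + 1), with a pseudocount of 1, for genes at 1 FPKM or more in 2 of the 4 P7.5 libraries. limma 3.58.1 (R 4.3.3, statmod 1.5.0; trended, robust, two-sided, Benjamini-Hochberg over all genes, threshold 0.05) was fitted to 16 libraries in 8 groups of 2, Cre-positive SC and retina at 4 stages, and separately to Cre-positive and Cre-negative SC. Fold differences are on this scale and understate those of low genes. The P7.5 ranks and the figures were computed in Python 3.11.15 (numpy 2.4.6, pandas 2.3.3, matplotlib 3.10.9). The list summaries and the ranks at the other stages were computed in R. The fit was tested on simulated data of 1875 genes, in which 3 unchanged genes were called.

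The members and lists were chosen with earlier results of these data known. Named genes were the called genes without overlap, the 3 tested members of each list with the highest mean, Rpl22, and the 3 genes of smallest p in each direction of the stage comparison; others are said to have been chosen after their values were seen, and list members beyond these likewise. Alternatives covered samples in the fit, pseudocount, filter, scaling, ranks, a replicate block and leaving out each library. A few listed genes are not reported here.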

Additional observations from a re-analysis of the deposited data

Results flagged for a closer look

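Cbr3 differed between stages by a test of the difference itself. Its axon and retina log2 difference at P7.5 minus the mean at the other stages was 4.56 (SE 0.80, adjusted p = 0.0376, limma). Both P7.5 axonal libraries, at 19.2 and 33.2 FPKM, lay above all axonal and retinal libraries of the other stages. Cre-negative SC held Cbr3 at 14.7 and 0.192 FPKM at P7.5 and at no more than 0.0706 FPKM at the other stages. The rise at P7.5 was thus shared by a library without tagged ribosomes. With a replicate block the adjusted p was 0.0956 (limma), and Cbr3 passed in 5 of 12 alternatives.

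Zfp385b, a zinc-finger gene, was higher in both retinal libraries at P7.5 (54.1 and 297 FPKM against 4.06 and 0.735 FPKM in axons) and higher in both axonal libraries at P0.5 (4.96 and 13.4 FPKM against 0.280 and 0.877 FPKM in retina). The log2 difference of means at P0.5 was 2.58, and the change between P0.5 and P7.5 alone was not tested. Zfp385b was chosen after its values were seen. Such a change was common, as 65 of the 291 genes separated toward retina at P7.5 (22.3%) separated the opposite way by rank at P0.5. Against the mean of the other stages the difference at P7.5 was -5.68 (SE 2.55), which did not pass (adjusted p = 0.992, limma).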

How the results depend on the processing

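The counts of called genes were small and moved with nearly every choice, while no direction reversed. Genes higher in axons (2) and in retina (3) became 4 and 7 with the 4 P7.5 libraries alone, 10 and 8 with the 6 P7.5 libraries, 0 and 1 with a pseudocount of 0.1, 1 and 0 without a filter, 2 and 5 at 5 FPKM, and 0 and 0 on ranks, with a split of 2 and 2 under median scaling. Leaving out one library gave 0 to 7 higher in axons (7 without axon 1, 0 without retina 1) and 0 to 8 higher in retina (0 without axon 2 or retina 1, 8 without retina 2). The larger difference at P7.5 (1 gene) became 0 with all 24 libraries, with a pseudocount of 0.1, at 5 FPKM and on ranks, and 0 to 5 when one library was left out. Against Cre-negative SC 0 genes were higher, and 0 to 14 with one library left out (14 without axon 1). Separated genes fell from 309 and 291 to 176 and 169 at 5 FPKM and to 151 and 133 with a gap of 10 percentile points. With one library left out, a choice added after seeing the data, they were 527 to 703 and 572 to 674, since fewer libraries had to agree. Over 14 alternatives the adjusted p (limma) ran from 0.00061 to 0.247 for Sptbn1, 0.00192 to 0.994 for Cbr3, 7.79e-07 to 0.307 for Ttyh2, 0.00613 to 0.422 for Opn1sw and 0.0304 to 0.270 for Pdpn. The causes were not tested.

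The study compared axons and retinas of the same animals, but the labels do not say that equal replicate numbers mark them. The differences between replicates correlated at 0.517 between axons and retina at P7.5, 0.463 between axons and Cre-negative SC and 0.443 between Cre-negative SC and retina, and at 0.151, 0.449 and -0.0982 between axons and retina at E17.5, P0.5 and in the adult. Under the replicate block 4 genes were higher in axons and 6 in retina, all 5 of the original calls among them, and 0 had a larger difference at P7.5.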
